A study of Homo sapiens with 2 samples.

Results

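Transcripts of 10 genes needed to copy DNA were examined in GM12878, an established line of human B cells that Epstein-Barr virus has immortalised. The genes were MCM2, MCM3, MCM4, MCM5, MCM6, MCM7, PCNA, RRM1, RRM2 and TYMS, and they were taken from the table by symbol. They were 10 of the 16645 annotated genes with a read and held 646 of the 237608 transcript models in the table. The study sequenced native RNA strands on Oxford Nanopore flow cells (kit SQK-RNA002, flow cell FLO-MIN106D) in 2 libraries, replicates 1 and 2, which form 1 group with no treatment. Nothing in the labels says whether the replicates came from separate cultures, so each p-value below sets the reads of 1 library against those of the other, a spread that may be technical, and tests no condition.

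MCM2 to MCM7 encode the subunits of a ring that is loaded at replication origins and becomes the core of the helicase that opens the double helix. PCNA is the sliding clamp that holds DNA polymerases on their template. RRM1 and RRM2 are the large and the small subunit of ribonucleotide reductase, which makes deoxyribonucleotides, and TYMS is thymidylate synthase, which makes dTMP. In dividing cells the genes are switched on together towards S phase, largely through E2F transcription factors, and lymphoblastoid lines proliferate continuously.

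Replicate 1 comprised 1360368 reads and replicate 2 comprised 1510998, so a single read was worth 0.735 and 0.662 CPM (counts per library total, scaled as usual). A gene with no read could have had up to 3 reads by counting error alone, or 2.21 and 1.99 CPM. Markers fitted the labelled cell type: all 7 B-cell genes checked were detected, at a summed 9089 and 9443 CPM. The summed level was at most 10.6 CPM in either library for each of the lists for T cells, myeloid cells, erythroid cells, fibroblasts, epithelium and hepatocytes, and CD3D, CD3G, LYZ, HBB, GATA1, COL1A2, EPCAM and ALB had no read. Each read is 1 RNA strand whatever its length, so CPM values of different genes are compared below without dividing by length. In RNA from many cells, fewer expressing cells and less RNA per cell cannot be told apart.

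All 10 replication genes were well expressed. Their mean levels lay above 54.1 CPM, the 75th percentile of the 10634 genes with at least 10 reads over both libraries. The median level of the 10 genes was 223 CPM in replicate 1 and 195 CPM in replicate 2, against 21.3 and 22.5 CPM for all genes tested. Together they took 3050 reads in replicate 1 and 3041 in replicate 2, or 2127 ± 162 CPM (SD, n = 2).

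Among the helicase subunits, MCM7 gave 442 reads (325 CPM) in replicate 1 and 475 reads (314 CPM) in replicate 2. MCM5, which sits at the gate where the ring opens around DNA, gave 418 and 466 reads, or 307 and 308 CPM. MCM7 stood slightly above MCM5 in both libraries. MCM2, which also binds histones, followed with 326 and 330 reads, or 240 and 218 CPM. MCM3 had 244 and 258 reads, equal to 179 and 171 CPM. MCM6 and MCM4 were the lowest in both libraries. MCM6 had 136 and 120 reads, or 99.97 and 79.4 CPM, and MCM4 had 121 and 137 reads, or 89.0 and 90.7 CPM. MCM4 was therefore below MCM6 in replicate 1 and above it in replicate 2, and their order is not set by these data. The 6 subunits are present in equal numbers in the ring, but their RNA levels spanned 3.65-fold in replicate 1 and 3.96-fold in replicate 2.

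The clamp gene PCNA had 421 reads in replicate 1 and 517 in replicate 2, or 310 and 342 CPM, and its mean of 326 ± 23.1 CPM (SD, n = 2) was the highest of the 10. The means of MCM7 (320 ± 7.46 CPM) and MCM5 (308 ± 0.803 CPM) were within the SD of PCNA. Thymidylate synthase gave 451 reads in replicate 1, where TYMS at 332 CPM was the highest of the 10 genes, and 368 reads (244 CPM) in replicate 2. RRM2, the subunit whose amount limits ribonucleotide reductase in S phase, had 281 and 203 reads, or 207 and 134 CPM. RRM1, the catalytic subunit, had 210 and 167 reads, or 154 and 110 CPM (110.5 before rounding). RRM2 stood above RRM1 by 1.34-fold in replicate 1 and 1.22-fold in replicate 2.

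**Figure D1:**
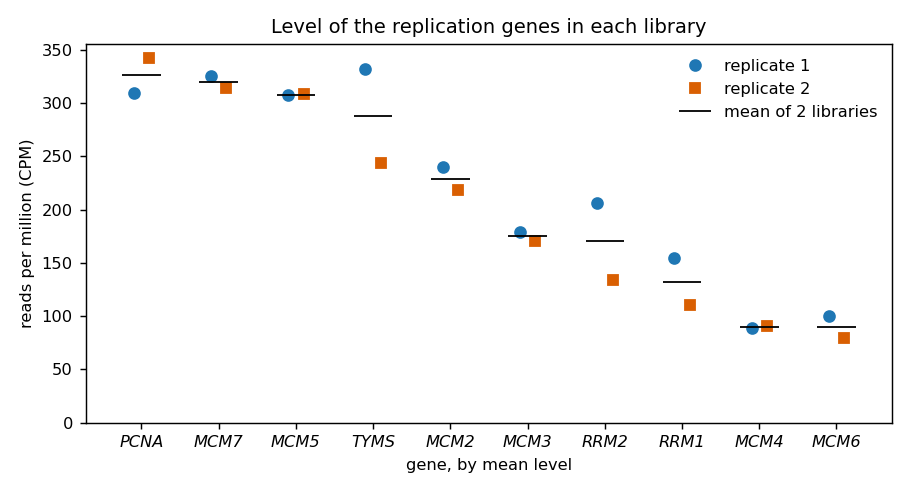
Level of the 10 genes in CPM (vertical axis, from 0), with a circle for replicate 1, a square for replicate 2 and a line at the mean of both. PCNA, MCM7 and MCM5 lie near 300 CPM in both libraries, MCM4 and MCM6 near 90, and the libraries are farthest apart for TYMS and RRM2.

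TYMS, RRM2 and RRM1 had fewer reads for the library size in replicate 2, and none of the 7 other members differed at an adjusted p under 0.05. By a two-sided exact binomial test with Benjamini-Hochberg adjustment over all 10634 genes, 5.05% of genes were called, 289 of them higher and 248 lower in replicate 2, so 3 of 10 members is above that share. Deeper genes were called more often: among the 1664 genes with at least 250 reads, a depth that every member reaches, the same test called 20.2%. The log2 ratio of replicate 2 to replicate 1 was -0.44 for TYMS (95% interval -0.65 to -0.24, exact binomial adjusted p = 0.000688). For RRM2 it was -0.62 (-0.89 to -0.36, exact binomial adjusted p = 0.000174). For RRM1 it was -0.48 (-0.78 to -0.18, exact binomial adjusted p = 0.0314). The MCM genes ranged from -0.33 for MCM6 (-0.70 to 0.03, exact binomial adjusted p = 0.376) to 0.03 for MCM4, and PCNA was at 0.14 (-0.04 to 0.33). The median log2 ratio was -0.10 over the members and 0.01 over all genes tested.

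These 3 calls rest on counting error alone. With edgeR's exact test, which adds a common biological coefficient of variation of 0.146 estimated from the same pair of libraries, no member was called, none had an unadjusted p under 0.05, and 21 genes were called in the table. RRM1 also lost its call when the models of the genomic category, reads that fall in a gene but follow none of its splice patterns, were left out of every gene and library total (log2 ratio -0.41, exact binomial adjusted p = 0.0660).

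The fall of RRM2 stood beside a rise of a gene that overlaps it in part. AC007240.1, annotated as protein-coding at chr2:10122739-10199288 on the plus strand, overlaps RRM2 on the same strand and runs on past the end of RRM2 at base 10131419. Its annotated transcripts have 8 of the 9 junctions of RRM2-202 and none of the 2185 bases of its last exon. AC007240.1 had 111 reads in replicate 1 and 179 in replicate 2, a log2 ratio of 0.54 (exact binomial adjusted p = 0.0448). Of these, 107 and 172 reads were in single-exon models of the genomic category, mostly 1 model of 1619 bases with 74 and 99 reads and 1 of 686 bases with 33 and 72. RRM2 itself had no genomic read, and only 3 and 2 of its reads were in single-exon models. With both genes summed, an alternative chosen after these values were seen, the reads were 392 in replicate 1 and 382 in replicate 2, or 288 and 253 CPM. The log2 ratio of the sum was -0.19 and was not called (exact binomial adjusted p = 0.381), so the difference in RRM2 depends on which of the genes the single-exon reads are given to. The table holds no coordinates, and where these single-exon reads lie was not tested.

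The wider replication machinery was lower than these genes. A list of 57 others covered origin recognition and licensing, the CMG helicase partners, the polymerases, clamp loader, RPA, Okazaki fragment processing, fork protection, chromatin assembly and dNTP metabolism, and all 57 had reads in both libraries. Their median level was 35.3 CPM, and 12 of the 57 lay above MCM6, the lowest of the 10 members by its mean (89.7 CPM). The highest was DUT, the dUTPase that keeps uracil out of DNA, at 246 ± 41.9 CPM (SD, n = 2), and the lowest was MCM9, a helicase of recombination repair, at 4.85 ± 0.625 CPM. In replicate 2, 22 of the 57 were higher and 35 lower, and the exact binomial test called 5, where 5.05% of all genes were called. Without genomic models it called 3 of the 53 that could be tested, where 723 of all 8758 genes were called. With edgeR's exact test 0 were called (2 at an unadjusted p under 0.05). Among the 5, DUT and CDT1, the loading factor of the MCM ring, were higher, with log2 ratios of 0.35 and 0.56. FEN1, the flap nuclease of Okazaki fragments, and CHAF1A, a histone chaperone subunit, were among the lower ones, with log2 ratios of -1.11 and -0.89.

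A pore reads an RNA strand from its 3′ end, so a read that stops early, or comes from a broken strand, lacks the 5′ exons. Each read had been assigned to a transcript model of a category. Known models match an annotated transcript. Incomplete splice matches (ISM) contain only some consecutive junctions of such a transcript, and the suffix kind retains the 3′ end. NIC models pair up known splice sites in combinations that the annotation lacks, while an NNC model uses at least 1 splice site outside it. Of the reads of the 10 genes, 43.0% were in known models in replicate 1 (Wilson 95% interval 41.2 to 44.7%) and 24.4% in replicate 2 (22.9 to 26.0%). ISM models took 45.4% and 62.6%, with the suffix kind alone at 36.8% and 48.4%. NIC and NNC models together took few reads, 83 and 152 in replicate 1 and 66 and 91 in replicate 2, although they made up 235 of the 646 models. Single-read models were 60.8% of the members' models, against 61.0% in the whole table.

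PCNA had the largest share of its reads in known models, 76.0% in replicate 1 and 57.5% in replicate 2. RRM2 followed with 71.5% and 41.9%, and TYMS with 66.5% and 41.0%. The helicase genes were lower. MCM5 and MCM7 each had 33.7% in replicate 1 and then 15.2% and 13.9% in replicate 2, and MCM6 had 29.4% and 10.8%. MCM3 had 20.49% and 6.59%, MCM4 had 16.5% and 6.57%, and MCM2 had 15.03% and 6.67%. RRM1, at 19.5% and 7.19%, was with these and far from its partner subunit RRM2. The RRM2 share leaves out the single-exon reads given to AC007240.1, which would lower it if they were RRM2 reads. In every member the share was lower in replicate 2, with differences between -8.36 percentage points in MCM2 and -29.7 in RRM2.

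**Figure D2:**
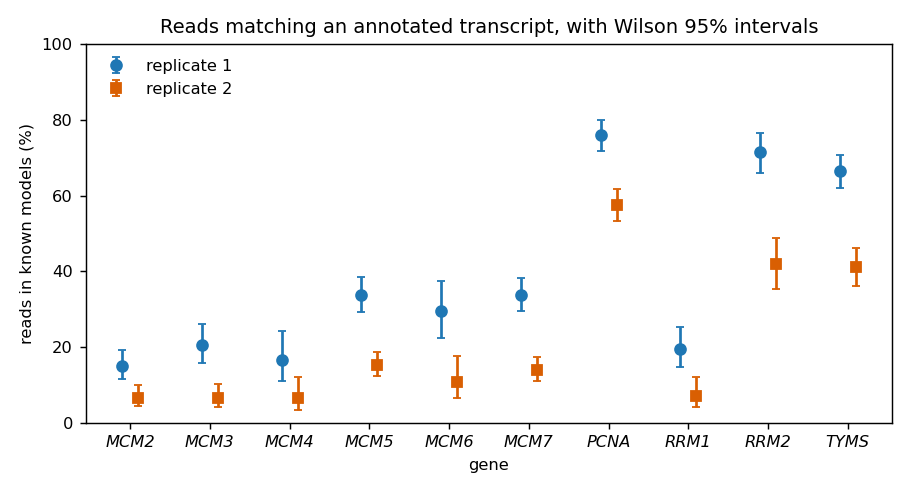
Percentage of each gene's reads in known models (vertical axis) in replicate 1 (circles) and replicate 2 (squares), with Wilson 95% intervals. The squares lie below the circles in all 10 genes, and PCNA, RRM2 and TYMS stand above the other 7 genes in both libraries.

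Fisher's exact test with Benjamini-Hochberg adjustment called the lower known share in 9 of 10 members. Over all 6340 genes with at least 20 reads in each library, 27.1% were called, and 26.9% were called lower in replicate 2. Depth matters for this test as well, since 61.2% of the 1912 genes with at least 100 reads in each library were called, a minimum chosen after the data were seen under which all 10 members were. The exception in the main test was MCM4 (difference -9.96 percentage points, Fisher's exact test adjusted p = 0.0586), and a minimum of 50 reads called it too. The smallest p was that of TYMS, with a difference of -25.5 percentage points (Fisher's exact test adjusted p = 1.21e-11). The median difference was -18.5 percentage points over the members, -8.62 over all genes tested and -10.3 over those with at least 100 reads. The known share was lower in replicate 2 in 79.4% of all genes tested.

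Completeness in exons was measured as the share of reads in models with at least as many exons as the gene's most-read known model. For PCNA, with 6 exons and 1344 bases, this share was 81.5% in replicate 1 and 62.1% in replicate 2. For TYMS, with 7 exons and 1662 bases, it was 67.4% and 42.7%. RRM2, with 10 exons and 3673 annotated bases, had 68.3% and 34.0%. The helicase genes and RRM1 have 15 to 19 exons and annotated lengths of 2957 to 4105 bases. MCM5 kept the highest share of them, 44.0% and 20.8%, and MCM7 had 41.2% and 18.7%. MCM6 had 36.0% and 10.8% and RRM1 had 26.7% and 11.98%, so their order differed between the libraries. MCM3 had 27.5% and 6.98%, MCM2 had 15.03% and 4.85%, and MCM4 had 14.9% and 3.65%. Exon number is not length, and the order of the genes can differ between them. The mean listed model length per MCM2 read was 2404 bases in replicate 1 and 1873 in replicate 2, of 3622. For MCM3 it was 1812 and 1359 of 3083, and for MCM4 1904 and 1332 of 4105. Over the 10 genes, Spearman's rho between annotated length and this share was -0.53 in replicate 1 and -0.67 in replicate 2, given as a description over points that share 2 libraries. RRM2, among the longest by annotation, was among the 3 highest by this share in replicate 1 and in replicate 2. That place holds for the reads assigned to RRM2. It leaves out the 107 and 172 single-exon genomic reads of AC007240.1, which would lower the share if they were RRM2 reads. Where they lie was not tested.

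Reads of the helicase genes fell short of the full exon number on average. The mean exon number of a MCM5 read was 12.5 in replicate 1 and 9.49 in replicate 2, of the 17 in MCM5-201. For MCM7 it was 10.2 and 7.77 of 15, and for MCM4 6.16 and 2.82 of 17. For MCM7 the most-read partial model was an ISM suffix of 5 exons and 1163 bases with 65 and 73 reads. In MCM2 the model with the most reads over both libraries was not an annotated one: an ISM suffix of 14 exons and 3499 bases held 68 and 32 reads, against 40 and 10 for the full MCM2-201 of 16 exons and 3622 bases. The first exon of MCM2-201 has 250 bases, more than separates these lengths. The listed length of the suffix model is therefore more than the last 14 exons of MCM2-201 hold, and where the extra bases lie was not tested.

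**Figure D3:**
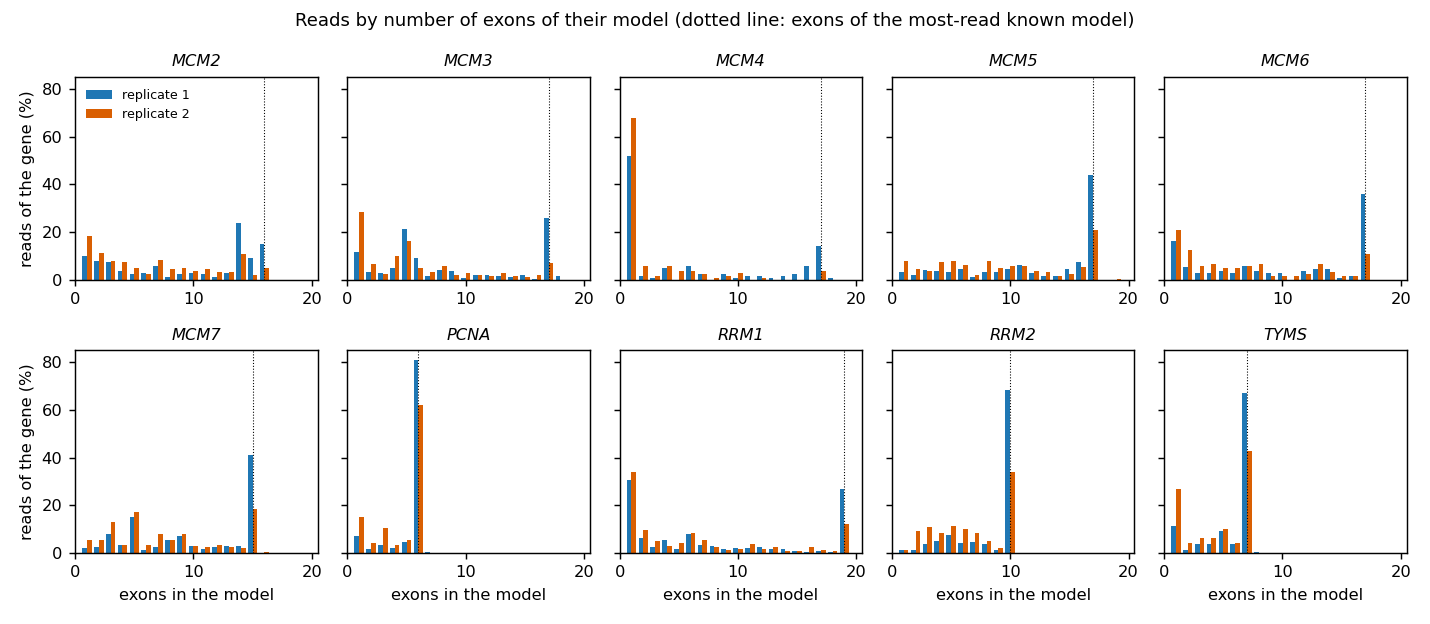
For each gene, the percentage of its reads (vertical axis) by the number of exons in the model they were assigned to (horizontal axis), as bars for replicates 1 and 2, with a dotted line at the exon number of the most-read known model. PCNA, RRM2 and TYMS peak at that line in both libraries, while MCM4 and RRM1 have their highest bar at 1 exon in both. MCM2, MCM3 and MCM6 have it at 1 exon in replicate 2 only. The RRM2 bars leave out the single-exon reads given to AC007240.1.

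Single-exon models made up 10.3% of the members' reads in replicate 1 and 17.99% in replicate 2. In some members 1 such model had about the length of the last exon, and in others it did not. For MCM2, a single-exon ISM model of 774 bases, the length of the last exon of MCM2-201, had 30 reads in replicate 1 and 60 in replicate 2. For MCM3, a model of 773 bases had 28 and 73 reads, and the last exon of MCM3-201 is 778 bases long. For RRM1, a model of 648 bases had 64 and 57 reads, the most of any RRM1 model, and the last exon of RRM1-201 has 682 bases. For MCM7, a genomic model of 388 bases had 7 and 25 reads, beside a last exon of 353 bases. For TYMS, a single-exon model of 1686 bases, longer than the last exon of 719 bases, had 50 and 97 reads. For PCNA, a genomic model of 1280 bases had 28 and 76 reads, beside a last exon of 410 bases. For MCM5, a genomic model of 3042 bases had 14 and 36, beside 1277 bases. For MCM6, an ISM model of 522 bases had 17 and 21, beside 1326 bases.

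In MCM4, single-exon reads were the larger part. A single genomic model of 1039 bases held 62 of its 121 reads in replicate 1 and 90 of its 137 in replicate 2, and single-exon models in all 52.1% and 67.9%. Without genomic models in any gene or total, the level of MCM4 was 48.7 and 34.4 CPM, a mean of 41.6 ± 10.1 (SD, n = 2; 10.15 before rounding) in place of 89.8 ± 1.22. The close agreement of its libraries and its place beside MCM6 therefore rest on this model. The last exon of its most-read known model is 1475 bases long, and whether the model lies in it was not tested because the table gives no positions.

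Usage of annotated isoforms could be compared in MCM2 and RRM2, the 2 members that had 2 known models of at least 10 reads each. Fisher's exact test called both. Of the 1351 genes tested, 23.2% were called, by Fisher's exact test or, with over 2 models, by permutations of the reads. In MCM2, MCM2-202, a processed transcript of 5 exons and 1076 bases, had 6 reads in replicate 1 and 12 in replicate 2, while MCM2-201 had 40 and 10. The share of MCM2-202 among both was 13.0% (Wilson interval 6.12 to 25.7%) and 54.5% (34.7 to 73.1%), with Fisher's exact test adjusted p = 0.00530. In RRM2, RRM2-207, a model of 5 exons and 573 bases annotated as a retained intron, had 20 and 21 reads, while RRM2-202 had 176 and 64. Its share among both was 10.2% (6.70 to 15.2%) and 24.7% (16.8 to 34.8%), with Fisher's exact test adjusted p = 0.0164.

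Both short models are built only from junctions of the long one. The 4 junctions of MCM2-202 are junctions 12 to 15 of the 15 in MCM2-201, and the 4 of RRM2-207 are junctions 6 to 9 of the 9 in RRM2-202. A strand of the long transcript read only from that exon on has the same junctions, so junctions alone cannot tell the 2 apart. Of the 28 known models with a read, 4, these 2 included, consist in this way of the last junctions of the gene's most-read known model, and they had 31 reads in replicate 1 and 39 in replicate 2 in all. The exon joins that a read must and must not span are shown for both genes from GENCODE release 29 transcripts, as 30 bases of RNA-sense sequence in DNA letters with the 3 bases on each side of the join in capitals. The coordinates are the exon bases that flank the intron on GRCh38, plus strand. A read with the first join of each pair is not the short model, and the second is the first join of the short model.
RRM2 junction 5, chr2:10124850-10126875: agatcccaaagaAAGGGAatttctcttcaa
RRM2 junction 6, chr2:10126969-10127087: aagaggctacctATGGTGaacgtgttgtag
MCM2 junction 11, chr3:127617405-127617969: ccgccaaccccaTAGGAGggcgctacgacc
MCM2 junction 12, chr3:127618081-127619027: gtggacccagtcCAGGACgagatgctggcc

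In some members, unannotated models with the exon number of the known model had shorter listed lengths than it. Whether they hold the same exons was not tested, since no coordinates are given. Each member had at least 3 NIC or NNC models with the exon number of its most-read known model, and their listed lengths were compared with it. RRM2 stood far from the rest: its 10 such models, with 16 reads in replicate 1 and 5 in replicate 2, were all between 1623 and 1649 bases, a median of 44.7% of the 3673 bases of RRM2-202. MCM4 had 3 such models with a median of 69.7%, MCM5 had 26 with a median of 71.3% (2519 of 3534 bases), and MCM6 had 7 with a median of 78.3% (2926 of 3736 bases). MCM7 had 28 with a median of 80.8% (2388 of 2957 bases). In MCM2, TYMS, MCM3, PCNA and RRM1 the medians were 94.6%, 94.0%, 99.7%, 99.6% and 99.9%. Thus 4 of 10 members had a median under 80%, against 35.5% of the 3227 genes with at least 3 such models, a share near the background.

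**Figure D4:**
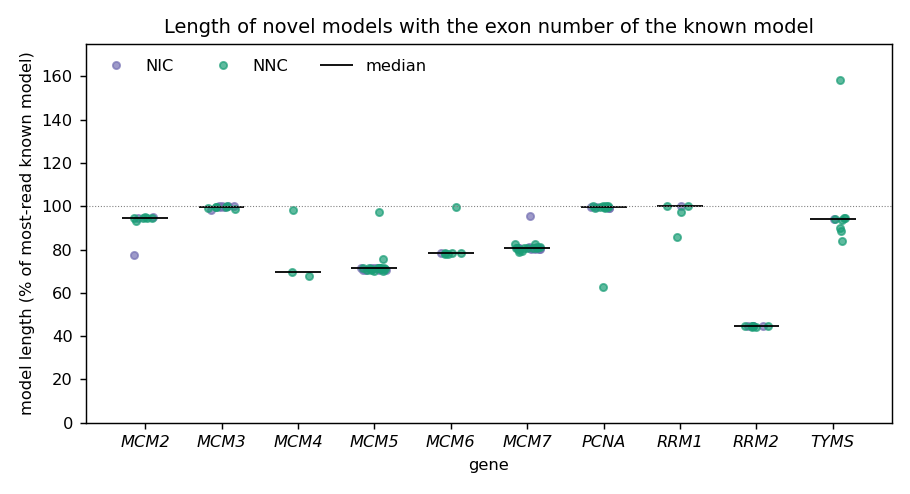
Length of each NIC (purple) and NNC (green) model with the exon number of the gene's most-read known model, as a percentage of that model's length (vertical axis, dotted line at 100), with the median as a line. The points of RRM2 lie in 1 tight cluster at 44.7%, those of MCM5, MCM6 and MCM7 mostly in clusters around their medians of 71.3%, 78.3% and 80.8%, and those of MCM3, PCNA and RRM1 mostly close to 100%.

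In RRM2 the shortfall of 2032 bases is larger than the first exon (570 bases) and the inner exons (918 bases) together, so it must lie at least partly in the last exon, which has 2185 bases. If inner exons are of annotated length, between 152.5 and 721.5 bases of the last exon remain in the median model. In MCM5 the same reckoning leaves 262 to 407 of 1277 bases, and in MCM6 516 to 683 of 1326. Each of these last exons holds the polyadenylation hexamer AATAAA at 2 places. The second ends 19 bases before the annotated end in RRM2 and in MCM6, and 169 bases before it in MCM5. The first ends at base 549 of the last exon in RRM2, at base 330 in MCM5 and at base 494 in MCM6. A single-exon ISM model of MCM6 with 17 reads in replicate 1 and 21 in replicate 2 was 522 bases long. The first hexamers are shown because they lie at or near the lengths to which these models reach, inside the range in RRM2 and MCM5 and before it in MCM6. How often a hexamer falls in such a range in other genes was not tested. In MCM4, not shown, the range was 230 to 346 of 1475 bases, and hexamers end at bases 287, 1228 and 1455. The sites are given as 24 bases of GENCODE release 29 transcript sequence on GRCh38 with AATAAA in capitals, plus strand for RRM2 and MCM5 and minus strand for MCM6.
RRM2, chr2:10129768-10129791: ttacaaacaAATAAAcattgtttg
MCM5, chr22:35424469-35424492: tccgttaatAATAAAgccacggtg
MCM6, chr2:135840449-135840472: attcatcaaAATAAAataacttgt

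The hexamer, searched on the transcript strand, is common. Of 3261 genes whose most-read known model has a last exon over 700 bases, 59.5% hold AATAAA more than 100 bases before the annotated end, and of the 7 members with such a last exon 5 do. A match is a description of these letters and shows no cleavage. The known models of full annotated length had more reads, 141 and 71 for MCM5-201 and 176 and 64 for RRM2-202, but reads assigned to a known model may end elsewhere than the annotation, and the table gives no read ends.

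In MCM7 the last exon could not hold the whole shortfall. Its shortfall of 569 bases is larger than the last exon (353 bases), so if inner exons are of annotated length, which was not tested, it lies at least partly in the first exon, which has 677 bases in MCM7-201. With the last exon also whole, 108 bases of the first exon remain in the median model. RefSeq (GRCh38.p14) has 3 starts of MCM7, which lie 543, 1186 and 1411 bases downstream of the start of MCM7-201. For MCM2 its start lies 188 bases downstream of the start of MCM2-201, and the unannotated models with 16 exons were shorter by a median of 195 bases. For TYMS the start lies 49 bases downstream and the models were shorter by a median of 100 bases, and for RRM2 the 2 starts lie 240 and 411 bases downstream, well short of its 2032 missing bases. For MCM3 the start lies 9 bases downstream, beside a median shortfall of 8 bases. For RRM1 and MCM6 the start lies upstream, beside shortfalls of 2 and 810 bases. For PCNA a start lies upstream and another 68 bases downstream, beside a shortfall of 6. Whether the models begin at any of these starts was not tested.

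Promoter sequence was taken from RefSeq (GRCh38.p14), as 250 bases before to 50 after each start, and 8 of the 10 genes matched, with 12 promoters. E2F-type motifs were searched as TTTCGCGC, TTTGGCGC, TTTCCCGC and TTTGCCGC on both strands; TTTCGCGC can overlap its own reverse complement GCGCGAAA. MCM2, MCM3, MCM6, MCM7, PCNA and TYMS had a motif in 1 promoter each, RRM1 and RRM2 had none of these letters in the window, and 3.31% of all 35116 promoters in the table had one. 1 motif site in each of 4 helicase genes is shown, since these genes encode subunits of 1 complex, with the motif and any overlapping motif in capitals on the gene's strand. Positions are those of the first motif base relative to the RefSeq start. These libraries measured RNA and not factor binding, so a match is only a description.
MCM6, minus strand, position -152, chr2:135876568-135876611: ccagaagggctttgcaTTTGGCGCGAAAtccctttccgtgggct
MCM2, plus strand, position 2, chr3:127598397-127598440: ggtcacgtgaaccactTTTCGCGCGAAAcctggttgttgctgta
MCM3, minus strand, position -4, chr6:52284723-52284762: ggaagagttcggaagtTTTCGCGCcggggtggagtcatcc
MCM7, minus strand, position -9, chr7:100101383-100101422: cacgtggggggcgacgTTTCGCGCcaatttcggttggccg

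Outside RRM2, neighbouring and related genes took few reads near the members. GENCODE release 29 places 11 genes over 6 of the members, of which 5 had reads. On the opposite strand TPRA1 at MCM2 had 55 and 63 reads, AP4M1 at MCM7 had 22 and 20, and TYMSOS and ENOSF1 at TYMS had 13 and 16 in replicate 1 and 18 and 21 in replicate 2. Of 8 pseudogenes named after members, only RRM2P3 had a read, a single one in replicate 2. The members lie on GRCh38 at chr3:127598223-127622436 (MCM2, ENSG00000073111.13), chr6:52264009-52284881 (MCM3, ENSG00000112118.18), chr22:35400063-35425430 (MCM5, ENSG00000100297.15), chr2:135839626-135876426 (MCM6, ENSG00000076003.4) and chr7:100092728-100101940 (MCM7, ENSG00000166508.17). PCNA (ENSG00000132646.10) lies at chr20:5114953-5126626, RRM1 (ENSG00000167325.14) at chr11:4094707-4138876, RRM2 (ENSG00000171848.14) at chr2:10120698-10131419 and TYMS (ENSG00000176890.15) at chr18:657604-673578. MCM4 (ENSG00000104738.17) is annotated in the same release, and all 10 genes are protein-coding.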

How the data were processed

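Raw counts of reads per transcript model, as the authors deposited them in 1 table, came from 2 direct RNA libraries of GM12878; per the submitters' processing notes minimap2 and hg38 were used, and the read filters are not given in the sources used here. Exon number and length of each model, deposited by the authors as other properties, were used as listed. All 28 known models of the members matched GENCODE release 29, the source of positions and exons. Counts were summed per gene and scaled to CPM by the library total. Exact binomial tests (genes with 10 reads or more in all), Fisher's exact tests of the known share (20 reads in each library) and of known models (10 reads each; 10000 permutations with over 2 models) were adjusted by Benjamini-Hochberg over all genes, threshold 0.05. Log2 ratios used 0.5 added reads. Tests compare libraries, since there is 1 group, and were tested on simulated data. Wilson intervals (95%) and limits of a count of 0 cover counting error only. All 10 members were named, models by a minimum of 5 reads or as the most-read ISM; the members and lists were chosen with earlier results of these data known, and other models were named after their values were seen. Of the other replication genes that the rule selects, 1 is not reported here. Alternatives used TMM (edgeR 4.0.16), DESeq2 1.42.0 size factors, other read sets and minimums. Software was Python 3.11.15, scipy 1.17.1 and R 4.3.3.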

Additional observations from a re-analysis of the deposited data

How the results depend on the processing

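Scaling by TMM or DESeq2 size factors kept all 3 calls of TYMS, RRM2 and RRM1. With known models only, 1042 of the 5528 genes tested and 8 of 10 members were called. All 8 were lower in replicate 2, as were 718 of the 1042 genes, beside a shift of the median gene to a log2 ratio of -0.26. The summed level of the members was then 1398 ± 461 CPM (SD, n = 2), against 2307 ± 163 without genomic models. edgeR's exact test called 21 genes, 0 members and 0 of the other replication genes (unadjusted p under 0.05: 441 genes, 0 members and 2 others). Of the other replication genes, 3 of 53 tested were called without genomic models, beside 723 of 8758 genes. With no minimum of reads 3 of 57 were called, beside 462 of 16645 genes. The causes were not tested. Isoform use over known, ISM, NIC and NNC models called 1522 of 3421 genes (44.5%) and 8 of 10 members. A minimum of 20 reads a model called 31.5% of 745 genes and left 1 member, RRM2, because fewer models were tested. Over single libraries, the summed level was 2013 to 2242 CPM and the pooled known share 24.4 to 43.0%. The known share of MCM4 was 27.2% without genomic models, against 11.6%. No paired analysis was possible because both libraries belong to 1 group. Members had 120 to 517 reads a library, which limits the smallest difference that could be called.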
